A study of Mus musculus with 5 samples.

Results

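The nuclear-encoded subunits of respiratory chain complexes I, III, IV and V were followed in CRC tumours of mice kept at 30 °C or at 4 °C. Members were chosen by symbol alone, as names that begin with Uqcr, with Atp5, with Cox and a digit from 4 to 8, or with Nduf, one of the letters a, b, c, s or v and a digit. Names containing -ps were left out. Of 54014 distinct gene names in the count table, 84 met this rule, with 40 in complex I, 8 in complex III, 19 in complex IV and 17 in complex V, the ATP synthase. The rule itself uses no measured value. The tumours grew in C57BL/6 mice inoculated with MC38, a mouse colon carcinoma line, and were removed after 2 weeks at 30 °C (3 tumours) or at 4 °C (2 tumours). No allele or drug sets the groups apart in the labels, and age and sex are not given there. Bulk RNA was sequenced, and the comparison addresses whether tumour transcripts differ between cold and thermoneutral housing. The labels do not say that each library is a different animal, so p-values measure only the spread between these 5 libraries.

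The respiratory chain sits in the inner mitochondrial membrane. Complex I takes electrons from NADH and passes them to ubiquinone, complex III hands them to cytochrome c, complex IV delivers them to oxygen, and complex V uses the resulting proton gradient to make ATP. Most subunits are encoded in the nucleus and imported, and a small set is encoded by mitochondrial DNA. In solid tumours the chain is studied as the oxidative counterpart of aerobic glycolysis.

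Depth ran from 16191708 to 20320525 counts per tumour. Levels are given in CPM, counts scaled to a library of 1000000. At or under 3 counts, which is 0.148 to 0.185 CPM, a gene was taken as being at the floor. This floor covers counting error alone, because reads amplified by PCR were not collapsed to single molecules. All 37 genes named as mitochondrially encoded stood at 0 counts throughout, so the subunits encoded by mitochondrial DNA could not be followed. In 30 °C replicate 2, the 25 pancreatic acinar markers summed to 277116 CPM, against 2696 CPM in 4 °C replicate 2 and 20.8 to 82.9 CPM in the other 3 libraries. Of 12 erythroblast markers listed, 11 were in the count table. These 11 and all 12 B cell markers exceeded the floor in every library. The B cell markers summed to 3806 to 11434 CPM and the erythroblast markers to 16315 to 42507 CPM. The 11 epithelial markers, which a carcinoma would carry, summed to 20.6 to 127 CPM. Of 7 markers of splenic stroma, 6 exceeded the floor in every library. Their sum, 154 to 377 CPM, was above the epithelial sum in each library. The libraries are called tumours after their labels, and their tissue of origin was not tested. The 12 proliferation genes summed to 2006 to 2296 CPM at 30 °C and to 1349 to 1394 CPM at 4 °C. In bulk samples, fewer cells of a type and less RNA per cell cannot be told apart.

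Transcripts of the 4 complexes were abundant in all 5 tumours. Of the 84 members, 80 had counts above the floor and passed the filter on low counts, namely 39 of complex I, all 8 of complex III, 16 of complex IV and all 17 of complex V. The 4 others were Ndufa11b, Cox7b2 and Cox8c, with 0 counts in every library, and Cox8b, with 0 to 2 counts. Among the 80, Ndufb4c, Ndufs6b and Cox6c2 are annotated as processed pseudogenes, with 10 to 32 counts per library. They are kept wherever the 80 are called subunits. Together the members took between 0.684% and 1.13% of all counts of a tumour. Per kilobase of transcript and averaged over the 5 tumours, the median level was 74.0 CPM per kb in complex I, 130 in complex III, 189 in complex IV and 186 in complex V. Atp5b, the catalytic beta subunit of the ATP synthase, was the highest of all at 542 CPM per kb, followed by Cox4i1, the widely expressed form of a regulatory subunit of complex IV, at 513 CPM per kb. In complex III the highest was Uqcrh, the hinge protein between cytochrome c1 and cytochrome c, at 269 CPM per kb, and the lowest was Uqcrc2, a core protein, at 78.6. In complex I the highest was Ndufa4 at 263 CPM per kb, a protein now usually counted with complex IV, and the lowest above the floor was its paralogue Ndufa4l2 at 2.65. Atp5g1, which encodes the ring subunit c, was the lowest of the ATP synthase at 31.6 CPM per kb, whereas Atp5g2, which encodes the same mature protein, reached 229. These levels depend on the annotated lengths, 2675 and 586 bases. Before division by length the means were closer, at 84.6 and 134 CPM, and Atp5k, at 37.2 CPM, was below Atp5g1.

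**Figure D1:**
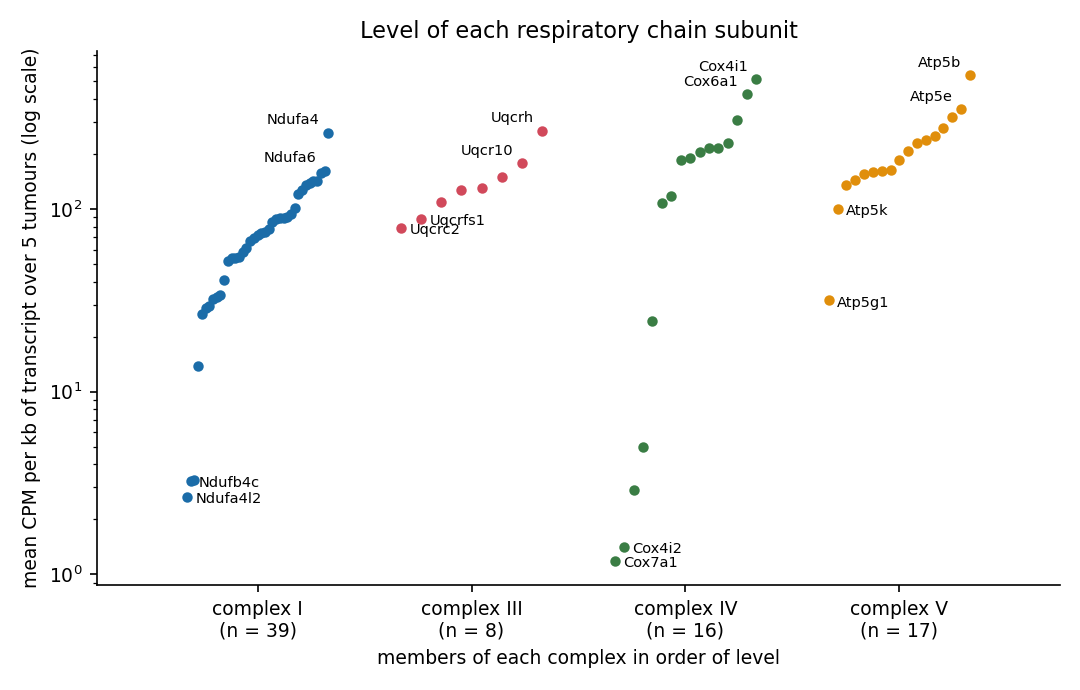
Mean level of each member above the floor, in CPM per kb of transcript over the 5 tumours (log axis), in order within complexes I, III, IV and V. Levels run from 1.18 (Cox7a1) to 542 (Atp5b), with Ndufa4l2 (2.65) at the bottom of complex I and Cox4i2 (1.42) next to Cox7a1 at the bottom of complex IV.

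The tissue-restricted forms contributed little. As a share of isoform and counterpart together, per kb, Cox4i2 made up 0.208% to 0.322% of the Cox4i1 and Cox4i2 pair over the 5 tumours. Cox6a2, the form of heart and skeletal muscle, made up 0.577% to 1.72% beside Cox6a1, and Cox7a1, also a form of muscle and brown fat, 0.833% to 1.19% beside Cox7a2. Cox6b2, known from testis, had the largest share of these isoforms, at 8.37% to 11.6% beside Cox6b1. Cox8b, a form of muscle and brown fat, stayed at or below 0.168% beside Cox8a. Ndufa4l2, a hypoxia-inducible paralogue of Ndufa4, made up 0.776% to 1.57%. The 8 genes of the muscle and brown fat marker list summed to 1.48 to 2.07 CPM.

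No subunit passed the test between 4 °C and 30 °C. With the quasi-likelihood test of edgeR over 16133 genes, 0 subunits and 0 genes in all (0%) had a Benjamini-Hochberg adjusted p under 0.05. At an unadjusted p under 0.05 there was 1 of 80 subunits, against 1090 genes in all (6.76%). The Wald test of DESeq2 called 118 genes (0.731%), and 0 of them were subunits. By sign, 65 of the 80 subunits had a log2 fold change above 0, against 50.7% of all genes tested, and their median was 0.13 on the log2 scale, against 0.0064 for all genes. The median was 0.15 in complex I, 0.04 in complex III, 0.16 in complex IV and 0.13 in complex V. These medians were smaller than the spread between tumours of one group: the median deviation of the subunits from their own means over 5 tumours was 0.14, -0.02 and -0.26 in the tumours at 30 °C and -0.17 and 0.33 in those at 4 °C. Both tumours at 4 °C lay above all 3 at 30 °C for 3 subunits (12.2% of all genes tested) and below them for 2 subunits (11% of all genes).

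The summed level of all 84 members, scaled by TMM (trimmed mean of M-values), was 10024, 9276 and 8074 CPM in the tumours at 30 °C and 8346 and 10976 CPM in those at 4 °C. The groups overlapped, with means of 9125 ± 984 CPM (SD, n = 3) and 9661 ± 1859 CPM (SD, n = 2). Complex I summed to 2778, 2528 and 2145 CPM at 30 °C and to 2274 and 3162 CPM at 4 °C. Complex V, the most abundant, summed to 4205, 3983 and 3520 CPM at 30 °C and to 3560 and 4325 CPM at 4 °C. In both complexes the highest and the second lowest sums belonged to the tumours at 4 °C. Complex III gave 942 ± 97.9 CPM (SD, n = 3) at 30 °C and 970 ± 173 CPM (SD, n = 2) at 4 °C, and complex IV 1797 ± 224 and 2030 ± 517 CPM. Without TMM factors the sum of all members was lowest, at 6844 CPM, in 30 °C replicate 2, the library rich in acinar transcripts, and lay between 9027 and 11328 CPM in the others.

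The member with the smallest p was Cox7a2l, a subunit-like protein described as a supercomplex factor (chromosome 17 from 83501918 to 83517330, GRCm38). Its protein form and its function in these mice were not examined. It had 196, 206 and 231 TMM-scaled CPM at 30 °C and 263 and 319 at 4 °C. Both cold tumours were above all 3 warm ones, and 30 °C replicate 3, the lowest tumour for 61 of the 80 tested subunits, was the highest warm tumour here. It was the 1 subunit with an unadjusted p under 0.05, and its log2 fold change was 0.46 ± 0.17 (SE), with an adjusted p of 0.71 in the edgeR test. Leaving out either 30 °C replicate 1 or 30 °C replicate 2 brought the number of subunits with an unadjusted p under 0.05 to 0, with a log2 fold change of 0.41 and 0.44 for Cox7a2l. Leaving out 4 °C replicate 2 gave 0.30.

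Among the core subunits of complex I, which carry the flavin and iron-sulphur clusters, 5 of 7 had a log2 fold change above 0, with a median of 0.06. The largest of these, Ndufs1 (chromosome 1 from 63143596 to 63176833, GRCm38), went the other way. It had 93.1, 98.6 and 92.4 TMM-scaled CPM at 30 °C and 76.4 and 73.4 at 4 °C, so that both cold tumours were below all warm ones. Its log2 fold change was -0.34 ± 0.16 (SE), with an adjusted p of 0.76 in the edgeR test. It lay between -0.37 and -0.32 with each tumour left out in turn. With DESeq2, Ndufs1 also had an unadjusted p under 0.05, and its adjusted p was 0.52.

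Ndufs3, of the module that binds ubiquinone, stood at 65.7 ± 8.93 TMM-scaled CPM in warm tumours (SD, n = 3) and at 75.9 ± 22.0 in cold ones (SD, n = 2). Ndufv1, which binds NADH and the flavin, stood at 91.6 ± 7.97 and 86.7 ± 15.7, and its partner Ndufv2 at 102 ± 18.6 and 106 ± 25.8. All these differences were smaller than the SD in the cold group. Of the 29 accessory subunits, which surround the core and serve assembly and stability, 26 had a log2 fold change above 0, with a median of 0.16. Ndufa7 had the smallest p among them, with 72.1, 57.5 and 58.2 TMM-scaled CPM at 30 °C and 65.3 and 97.6 at 4 °C, and its groups overlapped. Its log2 fold change was 0.38 ± 0.23 (SE, adjusted p = 0.81 in the edgeR test). Ndufa4 had 134 ± 19.5 (SD, n = 3) and 144 ± 35.8 (SD, n = 2) TMM-scaled CPM.

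Ndufa4l2 (chromosome 10 from 127514967 to 127517154, GRCm38) was low, with 24 to 67 counts per library. It had 2.13, 1.97 and 1.96 TMM-scaled CPM at 30 °C and 3.33 and 2.76 at 4 °C, without overlap. The log2 fold change of 0.59 ± 0.33 (SE) was the largest of the members tested, with an adjusted p of 0.80 in the edgeR test.

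Complex III showed the smallest median. Of its 3 core proteins, 1 had a log2 fold change above 0, and of the 5 small subunits 4. Uqcrc2 had the lowest spread of all members, with 155, 145 and 146 TMM-scaled CPM at 30 °C and 143 and 148 at 4 °C, which is a coefficient of variation of 3.11% over the 5 tumours. Uqcrc1, the other large core protein, stood at 216 ± 18.9 (SD, n = 3) and 215 ± 29.7 (SD, n = 2). Uqcrfs1, the Rieske iron-sulphur protein, stood at 118 ± 11.1 and 124 ± 18.4. By p, the first 3 members were Uqcrh, Uqcrb and Uqcr11, with log2 fold changes of 0.21 ± 0.18, -0.12 ± 0.24 and 0.11 ± 0.29 (SE). Their adjusted p-values in the edgeR test were 0.86, 0.94 and 0.95.

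In complex IV, all 10 widely expressed subunits had a log2 fold change above 0, from 0.01 for Cox5b to 0.23 for Cox4i1, with a median of 0.10. All of them were highest in 4 °C replicate 2 or 30 °C replicate 1. Cox4i1 had 394, 366 and 320 TMM-scaled CPM at 30 °C and 343 and 499 at 4 °C, so that 1 cold tumour was above and the other within the range of the warm ones (log2 fold change 0.23 ± 0.22, SE, adjusted p = 0.87 in the edgeR test). Cox5a and Cox5b, which stabilise the catalytic core, stood at 116 ± 27.9 and 162 ± 34.5 (SD, n = 3) against 121 ± 29.6 and 163 ± 41.0 (SD, n = 2). Cox6a1, Cox6b1, Cox7a2, Cox7b and Cox8a had log2 fold changes of 0.17, 0.13, 0.06, 0.05 and 0.19, each with an SE between 0.23 and 0.27. The isoforms Cox4i2, Cox6a2, Cox6b2 and Cox7a1 had log2 fold changes of 0.42 ± 0.50, 0.40 ± 0.43, -0.18 ± 0.29 and 0.33 ± 0.53 (SE). Cox4i2 and Cox7a1 rested on 9 to 26 and 5 to 10 counts per library, where the depth cannot show a difference of this size.

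In complex V, 3 of 5 subunits of the F1 part (catalytic head and central stalk) had a log2 fold change above 0. Of the peripheral stalk and membrane part, 9 of 12 did. The 3 of the F1 part were the central stalk subunits Atp5c1, Atp5d and Atp5e. Both subunits of the catalytic head, Atp5a1 and Atp5b, were on the other side, at -0.07 and -0.15. Atp5a1, the alpha subunit, had 834, 794 and 767 TMM-scaled CPM at 30 °C and 762 and 760 at 4 °C, without overlap, yet the difference was small (log2 fold change -0.07 ± 0.17, SE, adjusted p = 0.95 in the edgeR test). Atp5b had 1077 ± 74.3 (SD, n = 3) and 972 ± 33.8 (SD, n = 2) and overlapped. Atp5e, the epsilon subunit of the central stalk, had 136, 132 and 122 at 30 °C and 140 and 202 at 4 °C, without overlap. Its log2 fold change was 0.39 ± 0.20 (SE, adjusted p = 0.78 in the edgeR test), and 0.09 without 4 °C replicate 2. The gamma subunit Atp5c1, the delta subunit Atp5d and the ring subunits Atp5g1 and Atp5g2 had log2 fold changes of 0.13 ± 0.17, 0.25 ± 0.22, -0.03 ± 0.28 and 0.23 ± 0.21 (SE).

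**Figure D2:**
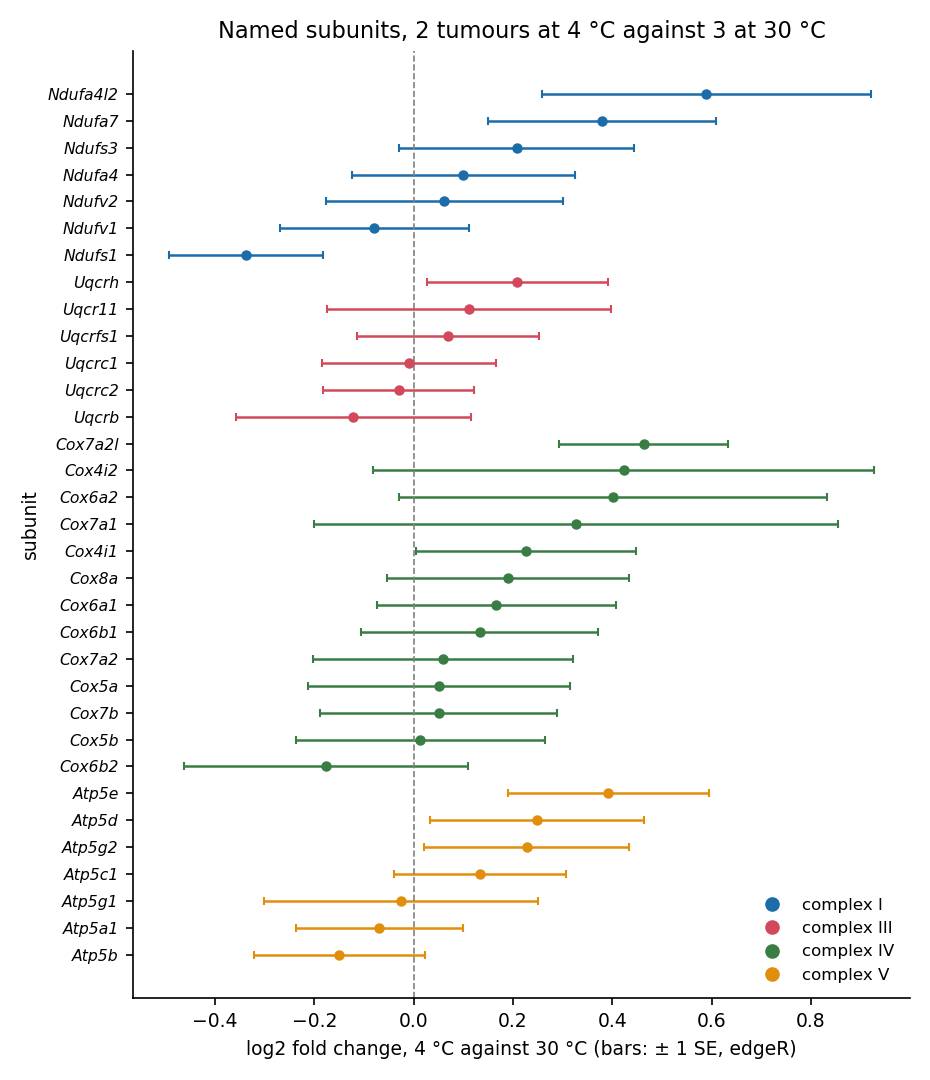
Log2 fold change of the named subunits at 4 °C against 30 °C with its SE from edgeR, coloured by complex. Points range from -0.34 (Ndufs1) to 0.59 (Ndufa4l2), and the adjusted p is 0.71 or more for each of them.

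The subunits moved together from tumour to tumour more than between temperatures. Of the 80 tested, 65 were highest in 4 °C replicate 2 and 61 were lowest in 30 °C replicate 3. The same counts were not made over all genes. Within the cold group, 77 of 80 were higher in replicate 2 than in replicate 1, by a median of 0.52 on the log2 scale, whereas over all genes tested 50.9% were higher and the median was 0.011. Within the warm group, 78 of 80 were higher in replicate 1 than in replicate 3, by a median of 0.42. Over all genes tested 49.4% were higher there, and the median was -0.0072. By median deviation, 4 °C replicate 2 was highest in each complex, and the lowest was 30 °C replicate 3 in complexes I, IV and V and 4 °C replicate 1 in complex III. In 4 °C replicate 2 the median deviation was 0.34 in complex I, 0.24 in complex III, 0.35 in complex IV and 0.30 in complex V, and in 4 °C replicate 1 it was -0.17, -0.19, -0.22 and -0.14.

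**Figure D3:**
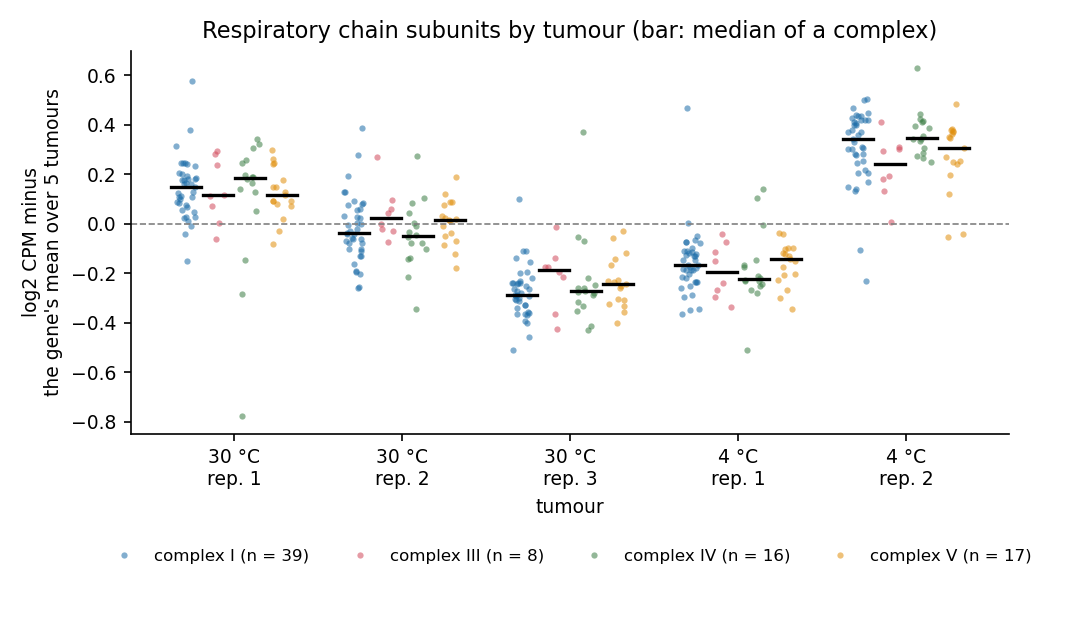
Log2 CPM of each tested subunit minus its own mean over the 5 tumours, by tumour and complex, with the median of each complex as a bar. All medians lie above 0 in 30 °C replicate 1 and 4 °C replicate 2 and below 0 in 30 °C replicate 3 and 4 °C replicate 1.

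Transcript length moved with this pattern. The subunits are short, with a median transcript of 731 bases against 2896 bases over the protein-coding genes tested, and 70% of them are at or under 1000 bases against 6.70% of protein-coding genes. Among the 480 other protein-coding genes up to 1000 bases with a mean above 4 log2 CPM, the median deviation was 0.09, -0.10 and -0.22 in the tumours at 30 °C and -0.12 and 0.38 in those at 4 °C, with the same signs as the subunits in all 5. The 1582 genes over 5000 bases had the opposite signs, with -0.12, 0.05 and 0.28 at 30 °C and 0.16 and -0.37 at 4 °C. The subunits of 1501 to 2500 bases, 12 in number, deviated by 0.14 in 4 °C replicate 2, against 0.35 for the 42 up to 750 bases. Subunits of 751 to 1000 and 1001 to 1500 bases stood at 0.36 and 0.35 there. In 4 °C replicate 1 the subunits of 1501 to 2500 bases and those up to 750 bases were closer, at -0.15 and -0.18. Other protein-coding genes of these lengths were at -0.05 and -0.09 in that tumour. With a length trend taken out of each library, an alternative chosen after seeing the data, the median of the subunits became -0.07 and 57 of 80 had a log2 fold change below 0. Under this setting 1 subunit had an unadjusted p under 0.05, Ndufs1, at -0.35 ± 0.11 (SE, adjusted p = 0.63 in the edgeR test), and 0 subunits were called. Cox7a2l stood at 0.30 and Atp5e at 0.13. The origin of the length trend was not tested.

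**Figure D4:**
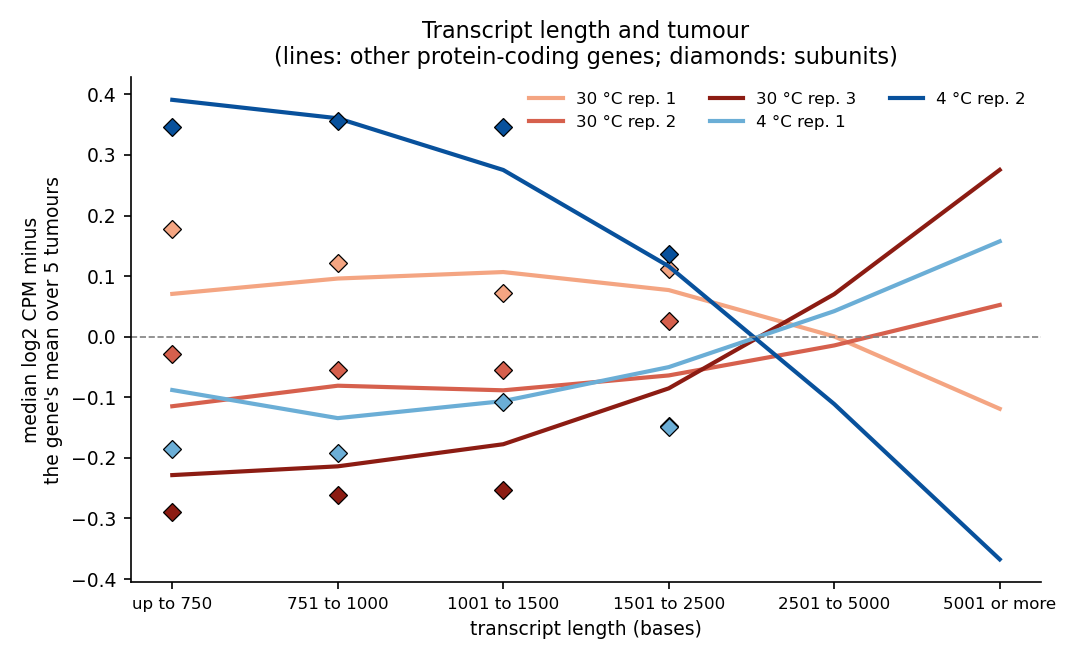
Median log2 CPM minus the gene's mean over 5 tumours against transcript length in bases, with lines for other protein-coding genes and diamonds for subunits in bins of at least 10. The line of 4 °C replicate 2 falls from 0.39 to -0.37 and that of 30 °C replicate 3 climbs from -0.23 to 0.28, and the diamonds of each tumour lie on the same side of 0 as its line in the bins up to 1500 bases.

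The direction of the list rested on single tumours. Without 4 °C replicate 2 the median was -0.16 and 70 of 80 subunits had a log2 fold change below 0, and without 4 °C replicate 1 it was 0.38 and 5 of 80 did. Leaving out 30 °C replicate 3 gave 0.02, with 35 of 79 below 0, and leaving out 30 °C replicate 1 gave 0.22, with 7 of 79. Without 30 °C replicate 2, the tumour rich in acinar transcripts, the median was 0.12 with 15 of 80 below 0. Sums of cell type markers were read beside the subunits. The 10 macrophage markers were all above the floor in every library. They summed to 3687, 1728 and 3240 CPM at 30 °C and to 2886 and 3857 CPM at 4 °C. This is the order of the subunit sums without TMM factors over all 5 tumours. With TMM factors the subunit sum was lowest in 30 °C replicate 3, at 8074 CPM, against 9276 CPM in 30 °C replicate 2. The TMM factor was 0.738 in 30 °C replicate 2 and 1.03 to 1.13 in the others. Division by these factors leaves the macrophage sum lowest in 30 °C replicate 2. The orders of macrophage and subunit sums therefore differ on that scale. The erythroblast sum was highest in 4 °C replicate 2 and lowest in 30 °C replicate 3, with 42507 and 16315 CPM. It was 36209 CPM in 4 °C replicate 1, where the median subunit deviation was -0.17. In 30 °C replicate 1, with a deviation of 0.14, it was lower, at 30197 CPM, and in 30 °C replicate 2 it was 31608 CPM. The B cell markers were at 10827 and 11434 CPM in the 2 cold tumours and at 3806 to 9743 CPM in the warm ones. The part of these cell types in the values of the subunits was not tested.

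**Figure D5:**
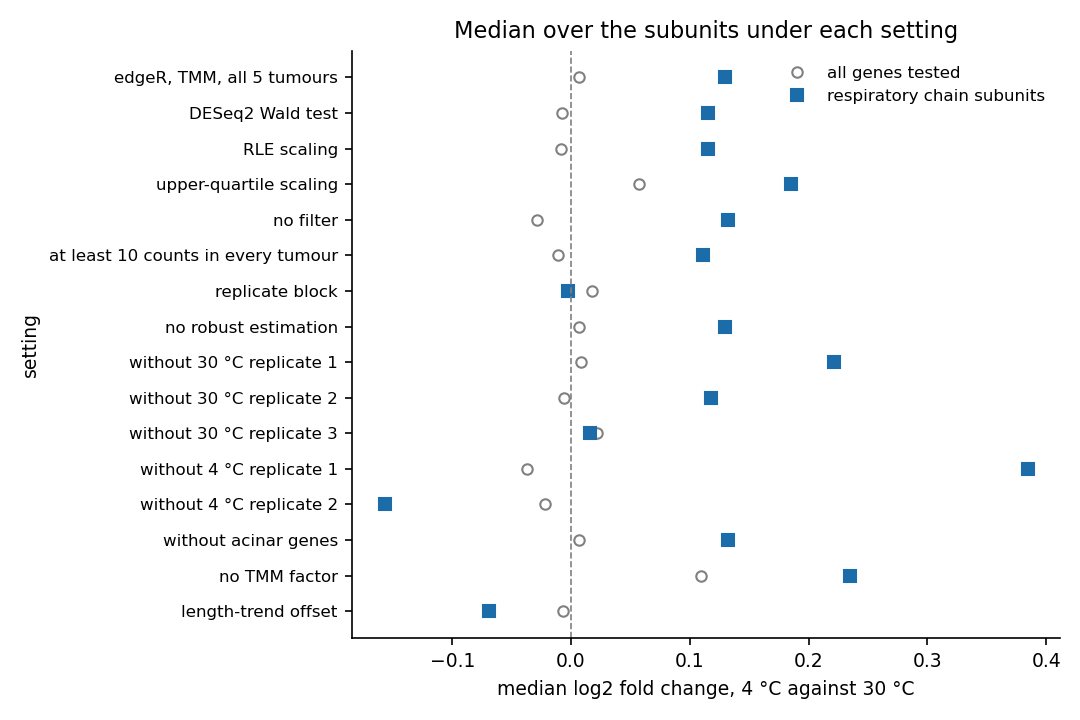
Median log2 fold change of the subunits (squares) and of all genes tested (circles) under each setting. The squares run from -0.16 without 4 °C replicate 2 to 0.38 without 4 °C replicate 1, whereas the circles stay between -0.04 and 0.11.

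Promoters of subunit genes are known for sites of the factors NRF1, GABPA (of the ETS family) and YY1, which act on many mitochondrial genes. In the RefSeq windows of GRCm38.p6, from 250 bases before to 50 bases after a transcript start, 65 members had 70 windows. The NRF1 letters GCGCATGCG, searched on both strands, were in 11.4% of the windows of members and in 1.75% of all 32851 windows. This motif is nearly its own reverse complement, so most matches on one strand overlap one on the other. The ETS letters CCGGAAG were in 21.4% against 8.86%, and the YY1 letters AAGATGGCG in 10% against 1.40%. These shares describe letters only. Of the 7 YY1 matches, 6 lay 22 to 35 bases after the start. The median log2 fold change was 0.15 for the 8 genes with NRF1 letters, 0.17 for the 15 with ETS letters and 0.05 for the 7 with YY1 letters, beside 0.13 for all members tested.

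The windows shown first belong to 3 of the 4 members with both NRF1 and ETS letters (the other is Atp5l), then to Atp5j, whose YY1 and ETS letters both lie before the start, and last to Atp5e and Cox7a2l, which had the smallest p in complexes V and IV. Capitals mark the motif letters on either strand, and each stretch ends 20 bases into the transcript. All 6 lie on the minus strand of GRCm38, at chr10:80406802-80406921, chr5:115348939-115349128, chr5:108434380-108434499, chr16:84834957-84835086, chr2:174464082-174464211 and chr17:83514314-83514433 in this order.
Uqcr11: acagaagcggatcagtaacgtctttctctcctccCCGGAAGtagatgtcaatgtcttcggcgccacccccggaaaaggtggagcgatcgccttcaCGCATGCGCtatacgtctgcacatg
Cox6a1: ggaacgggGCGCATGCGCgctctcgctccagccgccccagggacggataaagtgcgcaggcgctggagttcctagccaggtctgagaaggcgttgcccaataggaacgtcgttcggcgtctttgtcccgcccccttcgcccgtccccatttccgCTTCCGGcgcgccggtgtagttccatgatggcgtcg
Atp5k: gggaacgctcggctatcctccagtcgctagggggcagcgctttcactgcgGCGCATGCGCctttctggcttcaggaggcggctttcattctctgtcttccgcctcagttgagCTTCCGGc
Atp5j: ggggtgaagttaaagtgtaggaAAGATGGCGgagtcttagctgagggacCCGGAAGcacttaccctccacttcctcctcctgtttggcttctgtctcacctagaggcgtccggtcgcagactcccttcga
Atp5e: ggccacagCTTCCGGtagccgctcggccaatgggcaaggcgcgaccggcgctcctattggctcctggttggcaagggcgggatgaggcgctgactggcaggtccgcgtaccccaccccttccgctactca
Cox7a2l: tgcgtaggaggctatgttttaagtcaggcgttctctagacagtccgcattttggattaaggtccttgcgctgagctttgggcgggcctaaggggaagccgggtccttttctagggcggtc

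Uqcr11 and Cox6a1, a small subunit of complex III and a subunit of complex IV, had 78.5 and 262 TMM-scaled CPM in 30 °C replicate 1 and 85.8 and 316 in 4 °C replicate 2, against 50.1 and 198 in 30 °C replicate 3 and 52.5 and 201 in 4 °C replicate 1. Atp5j, of the membrane and stalk part of the ATP synthase, was likewise highest in 4 °C replicate 2, at 139 TMM-scaled CPM, whereas Atp5k of the same part was highest in 30 °C replicate 1, at 43.9 against 41.9 in 4 °C replicate 2. Both were lowest in 30 °C replicate 3, at 95.7 and 29.2. The stretch of Cox7a2l holds none of the 3 motifs, which says only that these letters are not in this window.

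Other genes of the pathway were read from lists written with earlier results known. Of the assembly factors, 14 of 17 tested for complex I, 6 of 6 for complex III, 15 of 24 for complex IV and 2 of 3 for complex V had a log2 fold change above 0, with medians of 0.15, 0.35, 0.10 and 0.03. Of the mitochondrial ribosomal proteins, which translate the subunits encoded by mitochondrial DNA, 68 of 78 did, with a median of 0.12. These counts, too, depended on single tumours. Without 4 °C replicate 2, 16 of 78 ribosomal proteins had a log2 fold change above 0, with a median of -0.12, as did 9 of 17 assembly factors of complex I and 11 of 24 of complex IV, with medians of 0.0086 and -0.085. The median of the complex III assembly factors was then 0.041, with 5 of 6 above 0. The median deviation of the ribosomal proteins was 0.11, -0.06 and -0.20 in the tumours at 30 °C and -0.15 and 0.28 in those at 4 °C, the same signs as for the subunits. With all 5 tumours, 7 of 15 regulators of mitochondrial biogenesis did, with a median of -0.01, and 4 of 9 respiratory chain genes outside the symbol rule, among them the 4 subunits of complex II and both cytochromes, with a median of -0.02. Without 4 °C replicate 2 these became 11 of 15, with a median of 0.11, and 0 of 9, with a median of -0.21. In none of these lists did a gene have an unadjusted p under 0.05 in the edgeR test, against 6.76% of all genes.

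The 2 genes with the smallest p in each list were named by rule. Dmac1 and Dmac2, assembly factors of the distal arm of complex I, had log2 fold changes of 0.43 ± 0.19 and 0.40 ± 0.18 (SE, adjusted p = 0.75 in the edgeR test for both). Cox15, which makes haem a for complex IV, had 39.0, 41.7 and 43.3 TMM-scaled CPM at 30 °C and 32.3 and 31.8 at 4 °C, without overlap (log2 fold change -0.37 ± 0.16, SE, adjusted p = 0.75 in the edgeR test). Higd2a, an assembly factor of complex IV, stood at 0.41 ± 0.21. Uqcc2 and Ttc19 of complex III stood at 0.52 ± 0.30 and 0.35 ± 0.22, and Tmem70 and Atpaf1 of the ATP synthase at 0.24 ± 0.17 and -0.03 ± 0.23. Tfam, which packages mitochondrial DNA, and Polrmt, the mitochondrial RNA polymerase, stood at 0.25 ± 0.18 and 0.26 ± 0.19. Mrpl23 and Mrps6, proteins of the large and the small mitochondrial ribosomal subunit, stood at 0.43 ± 0.19 and 0.88 ± 0.44. Mrps6 had 14.5, 8.38 and 8.82 TMM-scaled CPM at 30 °C and 11.2 and 27.7 at 4 °C. Uqcc2 had 43.4, 32.8 and 29.0 at 30 °C and 36.8 and 64.1 at 4 °C. In both genes 4 °C replicate 1 lay within the range of the warm tumours. Atpif1, the inhibitor of the ATP synthase, and Sdha, the flavoprotein of complex II, stood at -0.21 ± 0.33 and -0.07 ± 0.15.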

How the data were processed

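RNA-seq of 5 mouse tumours was read from 1 table of raw counts per gene symbol. The authors counted aligned reads with featureCounts on the Gencode annotation of GRCm38, and the deposited counts are not normalized. The submitters' processing notes name fastp, HISAT and RSEM, and the role of each, the strand setting and the treatment of multi-mapping reads are not given in the sources used here. Reads of subunit genes with processed pseudogene copies can be split between copies, and 4 members (Ndufa11b, Ndufb4c, Ndufs6b and Cox6c2) are annotated as processed pseudogenes. The labels give 200 ng RNA per group for library construction and do not say whether RNA was pooled, which would change what the SDs measure. Entries without a name (333) were left out, 0 value columns were left unused, and of entries sharing a symbol the one with the highest mean carried it, as for Atp5o.

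Groups came from the sample titles. Genes that passed filterByExpr were scaled by TMM and compared in R 4.3.3 with the quasi-likelihood test of edgeR 4.0.16 (robust, two-sided, no covariate), with Benjamini-Hochberg adjustment over all genes tested. Log2 CPM used a prior count of 2. Depth was 16191708 to 20320525 counts per library. Levels per kb used the median length of principal transcripts of GENCODE M21 on GRCm38, and the length trend was a lowess of span 0.3 over the genes tested. The SE of a fold change was derived from its F statistic. Lists are described by counts and medians with no test. The scripts were tested on simulated counts with 200 changed genes.

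The symbol rule uses no measured value, but this group of genes, the lists and the roles were chosen with earlier results of these data known. Named are, per complex, the 3 members with the smallest p, core subunits, tissue-restricted isoforms with their counterparts, and the highest and lowest levels, and per pathway list the 2 genes with the smallest p. The values of a gene that this rule selects are not reported here. Alternatives were DESeq2 1.42.0, RLE, upper-quartile or no scaling, other filters, a block for the replicate number, the fit without robust estimation, removal of acinar genes, each tumour left out and, added after seeing the data, the length-trend offset. Promoter windows came from RefSeq (GRCm38.p6). Members without a window included Atp5a1, Atp5mpl, Cox4i1, Cox4i2, Cox6a2, Cox6c, Cox6c2, Cox8c, Ndufa11b, Ndufa2, Ndufa4l2, Ndufb4c, Ndufb9, Ndufs1, Ndufs6b, Uqcrb, Uqcrc2 and Uqcrq.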

Additional observations from a re-analysis of the deposited data

How the results depend on the processing

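Over the 33 named subunits that were tested, 0 of 458 values under the alternatives had an adjusted p under 0.05, and the lowest was 0.41 (DESeq2, Cox7a2l). Over all genes, 0 were called under every setting of edgeR except the replicate block, which called 44, and the fit without TMM factors, which called 8. DESeq2 called 118. At an unadjusted p under 0.05 there were 1090 genes. The number of subunits with an unadjusted p under 0.05 was 2 with DESeq2, 0 without a filter, 0 with the replicate block, and between 0 and 5 when single tumours were left out. The number with a log2 fold change below 0 was 8 with upper-quartile scaling, 43 with the replicate block, 5 without TMM factors and 57 with the length-trend offset, and it ran from 5 to 70 with each tumour left out. Without TMM factors the median was 0.24 over the subunits and 0.11 over all genes. The median over the subunits was -0.0029 with the replicate block and between -0.16 and 0.38 with each tumour left out. The labels tie the replicate numbers to no shared animal, batch or day, so the block was not used in the test reported. The correlation of deviations from the group mean was -0.25 for number 1 and 0.26 for number 2. With 2 tumours at 4 °C, their deviations are equal and of opposite sign. These correlations are therefore not separate checks and cannot decide on a pairing. The libraries numbered 2 had the highest acinar and epithelial sums of their groups. Counting Ndufa4 and Ndufa4l2 in complex IV left the medians of complexes I and IV at 0.15 and 0.16. Removing the acinar genes and leaving out robust estimation turned no named subunit. The sign of named subunits turned as follows. Upper-quartile scaling gave 0.030 for Atp5g1, 0.044 for Uqcrc1 and 0.021 for Uqcrc2. For Cox5b, DESeq2 and RLE scaling both gave -0.0006 and at least 10 counts in every tumour gave -0.0017. The replicate block gave -0.099 for Cox5a, -0.12 for Cox5b, -0.003 for Cox6b1, -0.10 for Cox7a2, -0.097 for Cox7b, -0.015 for Ndufa4, -0.077 for Ndufv2, -0.071 for Uqcr11 and -0.011 for Uqcrfs1. The length-trend offset, added after seeing the data, gave -0.016 for Atp5c1, -0.0017 for Atp5g2, -0.16 for Cox5a, -0.17 for Cox5b, -0.070 for Cox6a1, -0.091 for Cox6b1, -0.16 for Cox7a2, -0.12 for Cox7b, -0.050 for Cox8a, -0.13 for Ndufa4, -0.035 for Ndufv2, -0.14 for Uqcr11, -0.061 for Uqcrfs1 and -0.021 for Uqcrh. When 1 tumour at a time was left out, values of complex I subunits lay between -0.19 and 0.33 for Ndufa4, -0.14 and 0.48 for Ndufs3, -0.29 and 0.096 for Ndufv1, and between -0.23 and 0.29 for Ndufv2. For complex III it lay between -0.30 and 0.42 for Uqcr11, -0.42 and 0.12 for Uqcrb, -0.17 and 0.13 for Uqcrc1, -0.070 and 0.0009 for Uqcrc2, -0.11 and 0.21 for Uqcrfs1, and between -0.010 and 0.39 for Uqcrh. For complex IV it lay between -0.084 and 0.47 for Cox4i1, -0.087 and 0.80 for Cox4i2, -0.24 and 0.28 for Cox5a, -0.28 and 0.25 for Cox5b, -0.21 and 0.46 for Cox6a1, -0.19 and 0.39 for Cox6b1, -0.62 and 0.16 for Cox6b2, -0.30 and 0.34 for Cox7a2, -0.28 and 0.31 for Cox7b, and between -0.19 and 0.48 for Cox8a. For complex V it lay between -0.068 and 0.30 for Atp5c1, -0.029 and 0.47 for Atp5d, -0.35 and 0.23 for Atp5g1, and between -0.055 and 0.45 for Atp5g2. A setting that leaves out a tumour at 4 °C keeps 1 tumour in that group, whose spread is then taken from the 30 °C tumours. Cox4i2, Cox7a1 and Ndufa4l2 rest on 5 to 67 counts per library, so depth limits their precision. The causes of these shifts were not tested.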

Other observations

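Some subunits stood outside the common order of the tumours, and they were picked out after their values were seen. In the cold group, 3 of 80 subunits were not higher in replicate 2 than in replicate 1. These were Ndufa4l2, a paralogue known from hypoxic cells, at a difference of -0.26 on the log2 scale, Ndufs1, the largest nuclear-encoded core protein of complex I, at -0.06, and Atp5a1, the alpha subunit of the ATP synthase, at -0.0045. Uqcrc2 and Atp5b, a core protein of complex III and the catalytic subunit of complex V, followed at 0.05 and 0.07. Apart from Ndufa4l2, with 934 bases, these genes have annotated transcripts of 1896 to 2625 bases. Atp5g1, with 2675 annotated bases, was at 0.57 and Ndufb2, with 2413, at 0.61. These lengths come from the annotation, and the part of length in the differences was not tested. In the warm group, 2 of 80 subunits were not higher in replicate 1 than in replicate 3. These were Cox6a2, the muscle form of a complex IV subunit, at -1.15 and with 34 and 95 counts, and Cox7a2l, at -0.23 and with 3691 and 5285 counts. Cox7a2l is described as a supercomplex factor, and its function in these mice was not examined. At the other end of the cold group stood Cox4i2 at 0.80, Ndufa5, an accessory subunit of complex I, at 0.77, and Cox6b2 at 0.76, of which Cox4i2 rested on 17 and 26 counts. No difference between 2 single tumours was tested.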
